A study of Mus musculus with 6 samples.

Results

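The 9 genes described here encode proteins of the epithelial tight junction and were measured in skin of mouse embryos at embryonic day 16.5. They are the claudins Cldn1, Cldn3, Cldn4, Cldn6 and Cldn7, the membrane proteins Ocln and F11r, and the cytoplasmic scaffold proteins Tjp1 and Cgn. They were taken as every probe set that the platform annotation assigns to one of these symbols alone, which gave 18 of the 45101 probe sets on the array and 9 of 18194 named genes. RNA from skin was hybridised to 1 Affymetrix array per sample, with 3 samples of Tcfap2c mutant skin and 3 of control skin. The gene Tcfap2c (current symbol Tfap2c) encodes the transcription factor AP-2 gamma. The labels give neither the allele, nor a Cre driver, nor the strain, and they do not say whether the samples came from separate litters. The description field of the control samples mentions the mutation too, while their titles and source names call them control skin. The tissue is labelled skin and the series title speaks of epidermis.

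Tight junctions seal the gap between neighbouring epithelial cells. Claudins span the membrane and form the strands of the seal, occludin and the junctional adhesion molecule JAM-A (F11r) lie beside them, and ZO-1 (Tjp1) and cingulin (Cgn) tie the strands to the actin cytoskeleton. In epidermis the functional tight junction lies in the granular layer, below the cornified layer, and mice without claudin-1 lose water through the skin and die soon after birth. Claudins 3, 4, 6 and 7 are also typical of simple epithelia and of embryonic epithelia.

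The values are MAS5 signals, linear intensities scaled so that every array has the same trimmed mean of 500. Differences are mutant minus control on the log2 scale after adding 24.4 to each signal, so changes of dim probe sets are understated. A filter kept probe sets whose mean over the 6 arrays lay above the median of all probe sets, a signal of about 114.5. Of the 18 member probe sets 10 passed, which represent 7 genes, and no probe set of Cldn3 or Cldn6 did. Those 2 genes were tested in a fit without the filter. Background was read from 9 Y-linked probe sets in the 3 arrays whose Xist signal was high, where signals had a median of 6.35 and reached 42.5. So few probe sets give a guide and not a detection limit for other probe sets. Mutant sample 1 stood apart, with a mean correlation with the other arrays of 0.94, whereas the remaining 5 reached 0.961 or more, so the differences it moves most are also given without it. The keratinocyte markers Krt5 and Krt14 were bright in all 6 arrays, at 10490.1 or more. Of 12 keratinocyte markers 7 were lowest in mutant sample 1, where their sum was 154004 against 167084 to 215963 in the others. Y-linked genes were high in mutant samples 2 and 3 and control sample 3 only, for example Eif2s3y at 1915, 1552 and 1620.3, so the groups differ in the make-up of the embryos by sex, also without mutant sample 1. The part of sex in the results was not tested. Over the whole array, limma called 1 of 22518 probe sets, which is not a member.

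Cldn3 had the largest difference of the 9 genes, with higher signal in mutant than in control skin, and it did not pass the threshold of an adjusted p of 0.05. Claudin-3 is a strand-forming claudin and a receptor of Clostridium perfringens enterotoxin. On the probe set with the highest mean signal (1451701_x_at), the values were 416, 128 and 161 in mutant samples 1, 2 and 3, and 38.5, 52.5 and 32.4 in control samples 1, 2 and 3. Every mutant sample lay above every control sample, and the control signals reached little above the highest background signal. The difference was 1.83 (SE 0.42, 95% interval 0.87 to 2.79), a 3.56-fold ratio of the signals after adding 24.4 to each. In limma without the filter the unadjusted p was 0.00185 and the adjusted p 0.867. On 1434651_a_at the signals were 450 in mutant sample 1, 129 in mutant sample 2 and 189 in mutant sample 3 against 19.0, 7.18 and 14.9 in the controls. That probe set also separated the groups, with a difference of 2.72 (SE 0.44) and an adjusted p of 0.455 in limma. Its control signals all lay below the highest background signal, so the size of that difference rests on values not above background.

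The other pair of Cldn3 probe sets showed the same sign with overlapping groups. On 1460569_x_at the signals were 434, 108 and 65.7 in the mutant and 15.8, 70.0 and 25.8 in the control samples, a difference of 1.61 (SE 0.60). On 1426332_a_at they were 245, 11.4 and 86.3 against 4.88, 46.2 and 13.3, a difference of 1.26 (SE 0.67). All 4 probe sets had their highest signal in mutant sample 1, and the plot of the Cldn3 probe sets shows how mutant samples 2 and 3 lie between it and the controls. Names ending in _x_at mark probe sets whose probes can bind other transcripts. Without mutant sample 1 the differences were 1.37 on 1451701_x_at (unadjusted p = 0.00506, limma adjusted p = 0.53) and 2.26 on 1434651_a_at (unadjusted p = 0.000235, limma adjusted p = 0.194), and mutant samples 2 and 3 still lay above all controls on both. In that fit without the filter, 3.47% of all probe sets had higher signal at an unadjusted p under 0.05, and 11.6% had both mutant samples above all controls. On 1460569_x_at and 1426332_a_at the differences without that sample were 0.92 and 0.56.

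**Figure D1:**
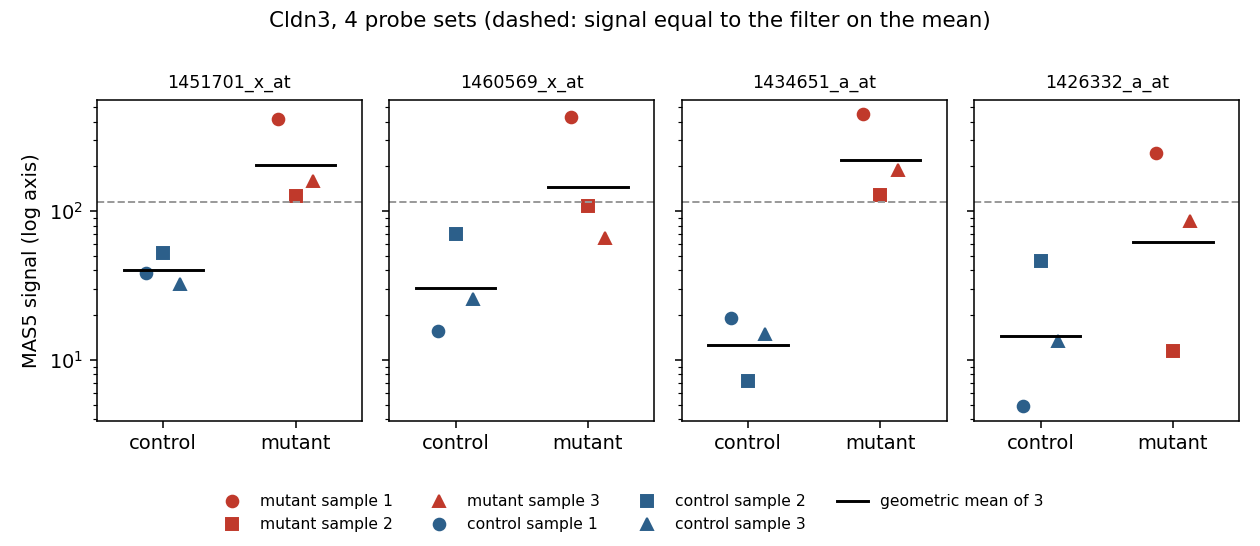
MAS5 signal of the 4 Cldn3 probe sets (log axis) in 3 control and 3 mutant samples, with the geometric mean of each group as a bar and the filter at a signal of about 114.5 as a dashed line. The 3 mutant samples lie above the 3 controls on 1451701_x_at and 1434651_a_at, and the groups overlap on the other pair.

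Mutant sample 1, the highest of the 6 for Cldn3, also stood out in markers of decidua, uterus and smooth muscle. Mutant sample 1 had Prl8a2, a decidual hormone, at 14204 against at most 61.2 in the others, Prap1, which encodes a proline-rich acidic protein made in uterus and intestine, at 32479 where the others had 335 or less, and Actg2, the smooth muscle gamma actin, at 13445 against at most 451. Summed over 15 measured decidual and uterine markers, the signal was 53268 in that sample, most of it from Prap1 and Prl8a2. The sums in mutant samples 2 and 3 were 1695 and 1291, and the controls ranged from 1221 to 1627. Of these 15 markers 8 were highest and 3 lowest in mutant sample 1. All 7 smooth muscle markers were highest there, and their sum was 62107 against 8024 to 10566 in the other 5 samples. In mutant samples 2 and 3 the smooth muscle sums were 8024 and 8442. Without mutant sample 1 Prl8a2 differed by -0.0098 and Actg2 by -0.073. Prap1 was at 335 and 190 in mutant samples 2 and 3 and at 11.6, 22.05 and 247 in the controls. Its difference was 1.85 without mutant sample 1 (unadjusted p = 0.0298, limma adjusted p = 0.638).

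Krt8 and Krt18, of the 8 listed periderm and simple epithelial keratins, and the trophoblast marker Tpbpa also had every mutant sample above every control sample. The same held for 3.30% of all probe sets kept by the filter and for 4.36% without the filter. Krt8, a keratin of simple epithelia and periderm, had signals of 2644, 1279.6 and 1395 in the mutant and 715, 811 and 645 in the control samples (difference 1.19, limma adjusted p = 0.571). Its partner Krt18 was at 3253, 694 and 875 against 379.7, 349 and 484 (difference 1.60, and 0.92 without mutant sample 1). Tpbpa, a marker of placental spongiotrophoblast, was at 197, 53.2 and 64.9 against 7.32, 7.37 and 12.98, all 3 mutant values above the highest background signal and all 3 control values below it. On its brightest probe set the difference of Tpbpa was 1.78 (unadjusted p = 0.00228) in limma without the filter, and 1.31 without mutant sample 1. Over the mean of its probe sets, with all samples, the difference was smaller, at 1.36. Only 2 of the 8 listed trophoblast markers had a probe set assigned to their symbol alone. The other besides Tpbpa, Prl4a1, was at 18.4 or less in every sample. Of the 8 keratins 6 had positive and 2 negative differences. At an unadjusted p under 0.05, 3 had higher and 1 lower signal, against 1.45% and 1.97% of all probe sets kept. The lower one is Krt17, at 671, 1760.1 and 1373 in the mutant and 2390.4, 1552 and 2534 in the control samples. Krt13, at 1969, 3632 and 2964 in the mutant and 4631, 4830 and 2633 in the control samples, had the other negative difference (-0.49). The listed keratins other than Krt8 and Krt18 all overlapped between the groups, Krt7 and Krt19 among them. The list had summed signals of 17446 to 23520.0 in the mutant and 13827 to 20091 in the control samples. The part of these cells in the Cldn3 signal was not tested. In RNA of bulk tissue, fewer cells of a type and less RNA per cell cannot be told apart.

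Claudin-4, like claudin-3 a receptor of the enterotoxin, is encoded by the gene next to Cldn3 among the protein-coding genes of mouse chromosome 5, on the opposite strand. Cldn4 was bright in all samples and did not differ between groups beyond their spread. Its signals were 750.0, 1699 and 1081 in mutant samples 1, 2 and 3 and 1098, 1073 and 883 in the controls. Mutant sample 1 was the lowest and mutant sample 2 the highest of the 6. The difference was 0.13 (SE 0.26, 95% interval -0.47 to 0.73, limma adjusted p = 1), and it was 0.41 without mutant sample 1 (unadjusted p = 0.0597) and -0.17 without mutant sample 2. The log2 signal of Cldn3 minus that of Cldn4 was -0.81, -3.50 and -2.58 in the mutant arrays and -4.16, -3.83 and -4.00 in the control arrays. This quantity differed by 1.70 between the group means, given as a description because the pair was chosen with these values known. Abhd11, the next protein-coding gene on the other side of Cldn3, differed by 0.05 (SE 0.13), and Cldn13, on the other side of Cldn4 beyond Mettl27, was at 82.5 or less in every sample.

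The stretches of 250 bases before the start sites of Cldn3 and Cldn4, and of Ocln, are shown because AP-2 factors bind GC-rich sites and the 3 genes differ in their profiles. Capitals mark matches to the AP-2 motifs GCCNNNGGC, GCCNNNGGG and GCC followed by GGC after 4 further bases, on either strand, in RefSeq sequence of build GRCm38.p6.
Cldn3 (chr5:134985964-134986213, + strand): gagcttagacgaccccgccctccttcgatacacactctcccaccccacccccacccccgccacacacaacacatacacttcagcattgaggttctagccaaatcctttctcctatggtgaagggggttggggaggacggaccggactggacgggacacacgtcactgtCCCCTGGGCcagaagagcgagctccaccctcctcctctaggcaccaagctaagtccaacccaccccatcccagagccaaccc
Cldn4 (chr5:134946935-134947184, - strand): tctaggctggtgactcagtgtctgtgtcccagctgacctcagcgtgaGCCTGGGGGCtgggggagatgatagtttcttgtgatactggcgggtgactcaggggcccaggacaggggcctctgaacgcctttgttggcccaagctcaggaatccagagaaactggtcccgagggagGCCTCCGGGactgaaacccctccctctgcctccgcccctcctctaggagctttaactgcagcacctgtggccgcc
Ocln (chr13:100552499-100552748, - strand): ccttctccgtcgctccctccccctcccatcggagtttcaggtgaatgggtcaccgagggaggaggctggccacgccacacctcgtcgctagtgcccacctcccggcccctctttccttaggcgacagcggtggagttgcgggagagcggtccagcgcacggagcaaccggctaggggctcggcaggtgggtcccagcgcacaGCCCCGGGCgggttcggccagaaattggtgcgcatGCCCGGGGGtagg

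Cldn3 had 1 match, which begins 82 bases before the start. Cldn4 had a match with the 4-base spacing that begins 203 bases before the start and overlaps one to GCCNNNGGG, and a further match to GCCNNNGGG at 75 bases. The Ocln start shown had GCCNNNGGC at 48 bases and GCCNNNGGG at 13 bases, and its other listed start had none. At least 1 match was present in 7 of the 11 member promoters in the table, which belong to Cldn1, Cldn3, Cldn4, Cldn6, Ocln, Tjp1 and Cgn, and in 34.6% of all 32851 promoters of the same length. Both starts of Cldn7 and the start of F11r had none. The stretches shown were 60.8%, 62.0% and 69.2% G or C, against a median of 52.4% over all promoters. Single motifs were found in 13.7% (GCCNNNGGC), 12.3% (4-base spacing) and 23.2% (GCCNNNGGG) of all promoters and in 1, 1 and 7 of the member promoters. A match describes the sequence and is not a bound site.

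Claudin-7, which associates with the adhesion molecule EpCAM, had a high signal in a single sample. Cldn7 was at 560.0 in mutant sample 1, 126 in mutant sample 2 and 57.4 in mutant sample 3, against 92.5, 52.2 and 112.8 in the controls. Mutant sample 2 lay just above the controls and mutant sample 3 among them. The difference was 0.85 (SE 0.62, 95% interval -0.57 to 2.26, limma adjusted p = 1) with all samples, 0.05 without mutant sample 1 and 1.47 without mutant sample 3. The high sample is the one with decidual, uterine and smooth muscle transcripts, and the part of these in the value was not tested. Epcam itself was at 1361 in mutant sample 1, within the range of 1273 to 1603 in the controls.

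Claudin-1, the claudin needed for the water barrier of skin, was among the bright members, and its groups overlapped on every probe set. On its brightest probe set (1437932_a_at) Cldn1 was at 2809, 4218 and 3885 in the mutant and 3121, 3603 and 3191 in the control samples. Mutant sample 1 was the lowest of the 6 and mutant samples 2 and 3 the highest. The difference was 0.12 (SE 0.17, 95% interval -0.26 to 0.50, limma adjusted p = 1). On 1450014_at the same order held, with 421 in mutant sample 1, 1213 and 1248 in mutant samples 2 and 3, and 856, 926 and 1095 in the controls. The difference there was -0.14, and the other pair of probe sets, with signals of 215 or less, gave -0.30 and -0.54. Without mutant sample 1 the brighter pair gave 0.29 (unadjusted p = 0.0296, limma adjusted p = 0.638) and 0.36 (unadjusted p = 0.0323), and the dim pair gave -0.49 and -0.42, so the probe sets disagree in sign.

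Claudin-6, a claudin of embryonic epithelia, was close to background. Cldn6 was at 53.9, 20.3 and 75.9 in the mutant and 37.4, 13.1 and 85.7 in the control samples. The groups overlapped throughout and 3 of the 6 values lay below the highest background signal. The difference was 0.15 (SE 0.47) in the fit without the filter. Its sign turned without mutant sample 3 (-0.10) or control sample 2 (-0.23).

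**Figure D2:**
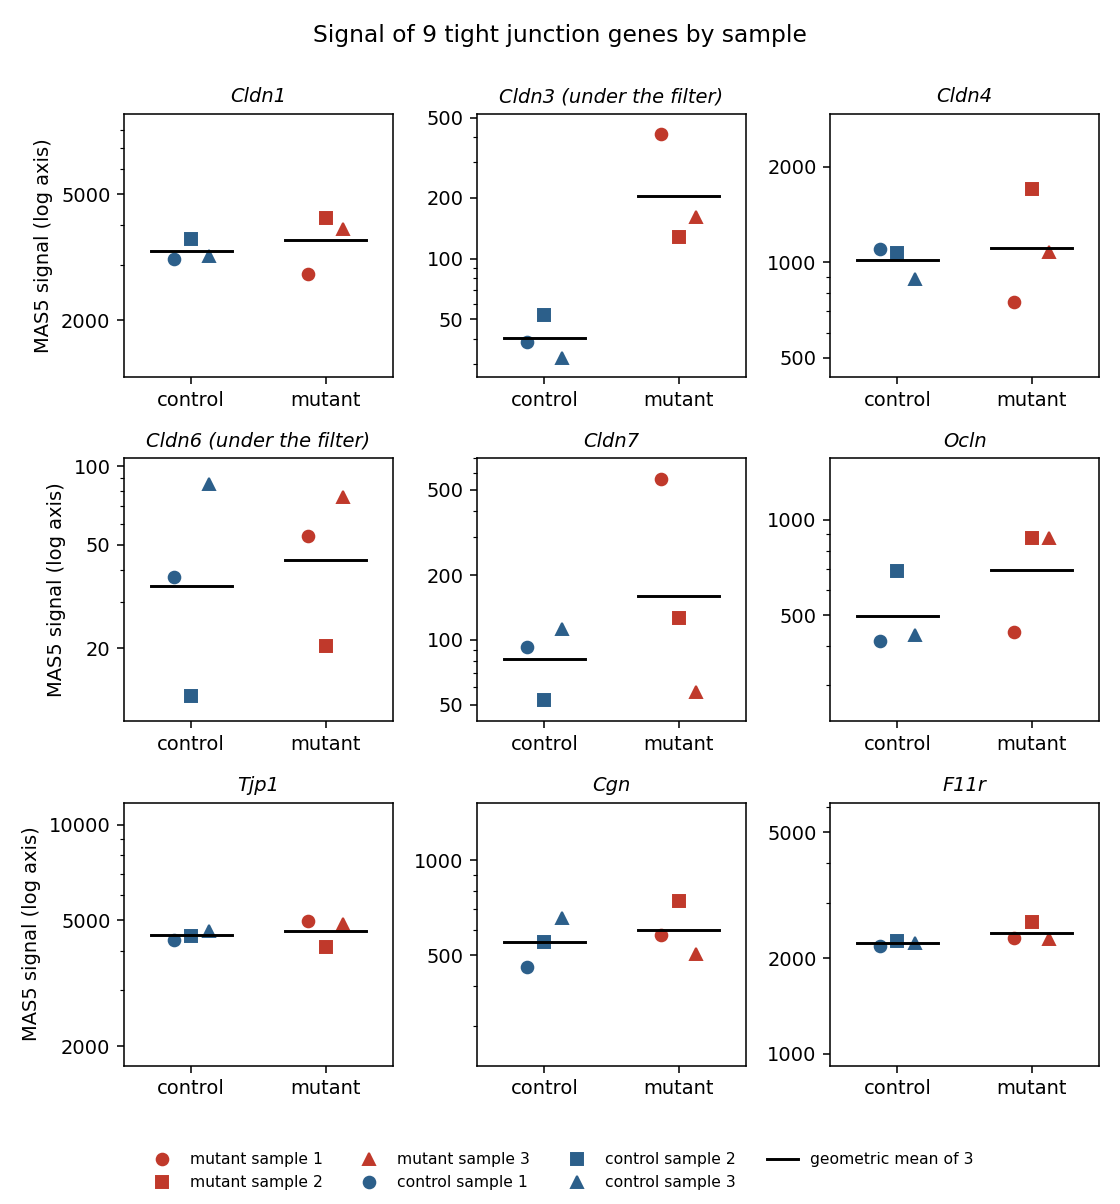
MAS5 signal (log axis, own range in each panel) of the 9 genes on their brightest probe set in 3 control and 3 mutant samples, with the geometric mean of each group as a bar. Cldn3 and, by a small margin, F11r separate the groups, and mutant sample 1 is the highest of the 6 for Cldn3, Cldn7 and Tjp1 and the lowest mutant sample for Cldn1, Cldn4 and Ocln.

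Occludin spans the membrane with both ends in the cytoplasm and is a regulator rather than the backbone of the strand. On its brighter probe set Ocln was at 442, 874 and 873 in mutant samples 1, 2 and 3, and at 414, 689 and 433 in control samples 1, 2 and 3. Mutant samples 2 and 3 were the highest of the 6, and mutant sample 1 lay among the controls. The difference was 0.47 (SE 0.29, 95% interval -0.20 to 1.13, limma adjusted p = 1). Without mutant sample 1 it was 0.78, a difference with an unadjusted p of 0.00453 and a limma adjusted p of 0.375. The other probe set (1440220_at) was at 309, 336 and 316 in the mutant and 283, 309 and 327 in the control samples and differed by 0.06 (SE 0.16), and by 0.09 without mutant sample 1. The probe sets thus differ in how far mutant samples 2 and 3 stand above the controls. Mutant sample 1, the lowest mutant sample for Ocln, Cldn1 and Cldn4, also had the lowest keratinocyte marker sum of the 6, and the part of that in these values was not tested.

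JAM-A, encoded by F11r, is an immunoglobulin-type adhesion molecule that helps to place polarity proteins at the junction. F11r was at 2316, 2597 and 2303 in the mutant and 2195, 2270.4 and 2233 in the control samples. Every mutant sample lay above every control sample, by a gap that was small against the level. The difference was 0.10 (SE 0.12, 95% interval -0.17 to 0.38, limma adjusted p = 1). A dim second probe set (1436374_x_at) had signals between 34.4 and 246 and overlapping groups.

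Neither scaffold gene separated the groups. Tjp1, which encodes ZO-1, the protein that binds the tails of claudins and organises strand assembly, was at 4966, 4114 and 4854 in the mutant and 4340.0, 4455 and 4633 in the control samples. The difference was 0.05 (SE 0.12, 95% interval -0.23 to 0.32), and mutant samples were both the lowest and the highest of the 6. Cgn, which encodes cingulin, a link from ZO-1 to actomyosin, was at 579.8, 744 and 506 in the mutant and 459, 552 and 657 in the control samples. Its groups overlapped, with a difference of 0.12 (SE 0.20, 95% interval -0.32 to 0.57), and a dim second probe set gave 0.26 (SE 0.45). These intervals leave room for differences of up to about their bounds, so they do not show that the scaffold was unchanged.

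Among the 7 genes kept by the filter, 0 had an unadjusted p under 0.05 in limma, where 3.42% of all probe sets tested did (1.45% higher and 1.97% lower), and 0 passed the adjusted threshold, as 0.00444% did. Every mutant sample lay above every control sample for 1 of the 7, F11r, against 3.30%, and below for 0, against 5.03%. All 7 had a positive difference, with a median of 0.12. Of these, Cldn7 passed the filter only through its signal of 560.0 in mutant sample 1, with controls at 112.8 or less. Its positive difference is thus tied to the filter. With the filter at the 60th percentile Cldn7 was not kept, and the median was again 0.12. Over all 22518 probe sets 10005 differences were positive and 12513 negative, with a median of -0.02. In the fit without the filter 1 of the 9 genes, Cldn3, had an unadjusted p under 0.05, against 4.01% of 45037 probe sets (2.11% higher and 1.90% lower), and 0 passed the adjusted threshold, against 0.00222%. Of the 18 member probe sets 3, all for Cldn3, had an unadjusted p under 0.05. Every mutant sample lay above every control sample for 2 of the 9 genes, Cldn3 and F11r, against 4.36% of probe sets in that fit, and the reverse held for 0 of the 9, against 4.54%. Without mutant sample 1, 2 of the 7 kept genes, Cldn1 and Ocln, had higher signal at an unadjusted p under 0.05, where 3.26% of probe sets did, and 0 had lower signal, where 3.89% did. None of the 7 passed the adjusted threshold, as 0.173% of probe sets did. The genes were chosen with earlier results of these data known, so these counts describe the genes and are not a test of the group.

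**Figure D3:**
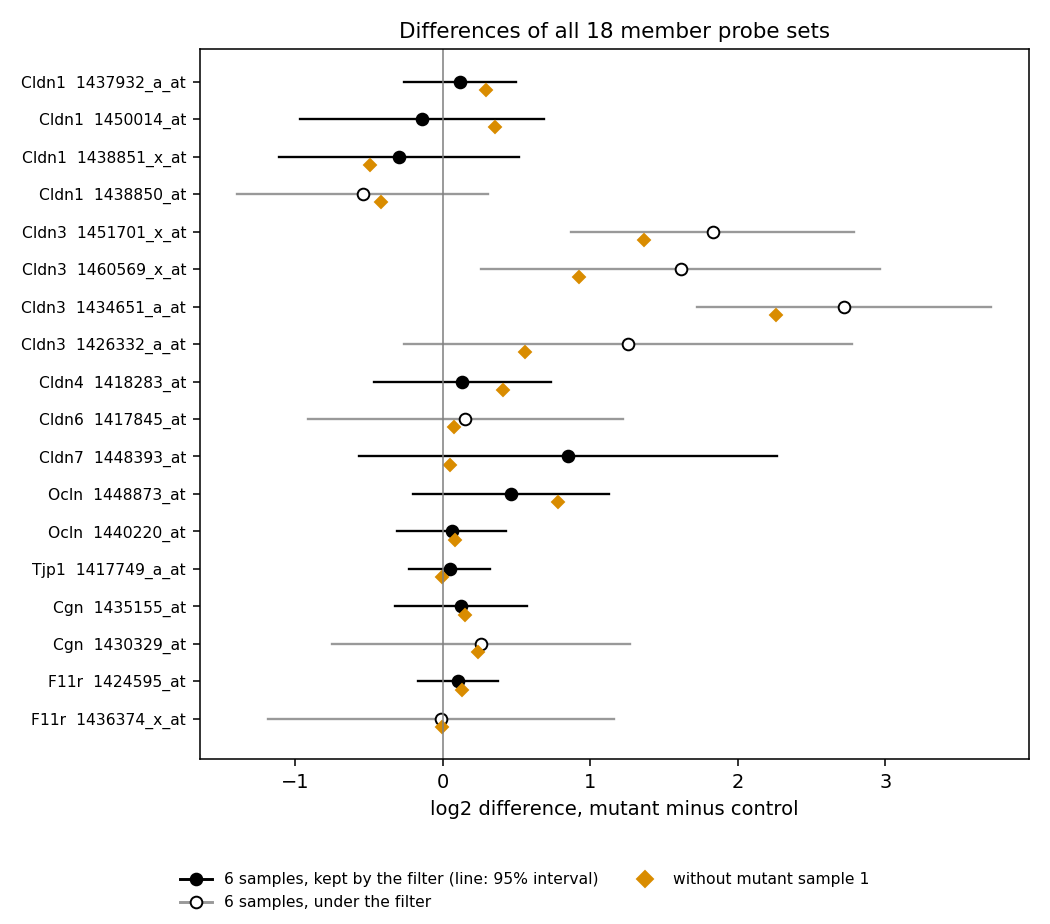
Log2 difference (mutant minus control) of all 18 member probe sets with all 6 samples (circles with 95% intervals, open where the probe set was under the filter) and without mutant sample 1 (diamonds). The 4 Cldn3 probe sets lie between 1.26 and 2.72, and the other 14 lie between -0.54 and 0.85.

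Among 16 other measured claudins 5 were kept, with 0 past an unadjusted p of 0.05 in either direction and a median of 0.12, which was -0.03 without mutant sample 1. Cldn23, a claudin of differentiated epithelia, was at 758, 1186 and 1134 in the mutant and 864, 839 and 629.95 in the control samples. As for Ocln, mutant samples 2 and 3 were the highest, and the difference of 0.38 became 0.57 when mutant sample 1 was left out (unadjusted p = 0.00574, limma adjusted p = 0.417). Cldn5, the claudin of endothelium, was at 496 in mutant sample 1 against 724 to 1027. Of the 8 endothelial markers, Cldn5 included, 4 were lowest in that sample, among them Pecam1 (586 against 868 to 1145) and Cdh5 (227 against 287 to 426). Under the filter, Cldn19, a claudin of kidney and nerve, differed by -0.70 at signals of 49.5 or less, Cldn16, of kidney, by 0.63 at 50.8 or less, and Cldn13 by 0.51. These values lie near the background signals.

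Among 10 other membrane proteins of the junction 8 were kept, with 4 positive and 4 negative differences, a median of 0.01 (-0.14 without mutant sample 1) and 0 past an unadjusted p of 0.05. Igsf5, which encodes JAM4, was under the filter, with signals of 335, 53.8 and 87.6 in the mutant and 38.4, 13.9 and 49.4 in the control samples. Its difference was 1.38 (SE 0.56, unadjusted p = 0.0351) and 0.73 without mutant sample 1. Marveld3, a relative of occludin, differed by 0.45, and Lsr, the angulin-type protein of tricellular contacts, by 0.32 (0.59 without mutant sample 1). Lsr was at 611 in mutant sample 1 and at 1332 and 915 in mutant samples 2 and 3, against 592 to 886 in the controls. Jam2 differed by -0.25, by -0.07 without mutant sample 1, and by 0.01 when its kept probe sets were averaged.

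All 21 other measured scaffold and polarity genes were kept, with 13 positive and 8 negative differences, a median of 0.03 (0.09 without mutant sample 1) and 0 past an unadjusted p of 0.05. For 5 of the 21, the 4 named here among them, every mutant sample lay above every control sample, against 3.30% of all probe sets kept. Cgnl1, which encodes paracingulin, was at 308, 371 and 372 in the mutant and 293, 266 and 297 in the control samples (difference 0.27, limma adjusted p = 1). Patj, a polarity scaffold, was at 363, 442 and 399 against 362.4, 319.9 and 302 (difference 0.27). Pard6b, a partner of atypical protein kinase C, differed by 0.53 (unadjusted p = 0.0726) and Amotl2, an angiomotin family scaffold, by 0.27 (unadjusted p = 0.0766). For none of these 4 genes did the limma adjusted p fall below 0.335 in any setting run.

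Of 14 measured partners and regulators, all kept, 2 had higher signal at an unadjusted p under 0.05 and 0 lower, against 1.45% and 1.97% of all probe sets, with a median of 0.06. Without mutant sample 1, 4 had higher signal at an unadjusted p under 0.05 and 0 lower, against 3.26% and 3.89% of all probe sets. The median was then 0.21, and -0.01 over all probe sets. Spint1, an inhibitor of the membrane proteases matriptase and prostasin, was at 1203, 1335 and 1028 in the mutant and 932, 966 and 741 in the control samples. The groups did not overlap, and the difference was 0.43 (SE 0.17, unadjusted p = 0.0303, limma adjusted p = 1). Cdh1, the E-cadherin of adherens junctions, was at 4924, 5639 and 5649.99 against 4756, 4235 and 4207, a difference of 0.29 (SE 0.12, unadjusted p = 0.0366, limma adjusted p = 1). Grhl3, a grainyhead-like transcription factor of the epidermal barrier, was at 1167, 2093 and 1817 against 1361, 1553 and 1087 (difference 0.31, and 0.55 without mutant sample 1). Grhl2, its relative known as a regulator of Cldn4, was at 1286, 1290.2 and 729.6 against 911, 817 and 828 (difference 0.32, and 0.19 without mutant sample 1). Mutant sample 3 was the lowest of the 6 for Grhl2 and mutant sample 1 the lowest mutant sample for Grhl3.

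**Figure D4:**
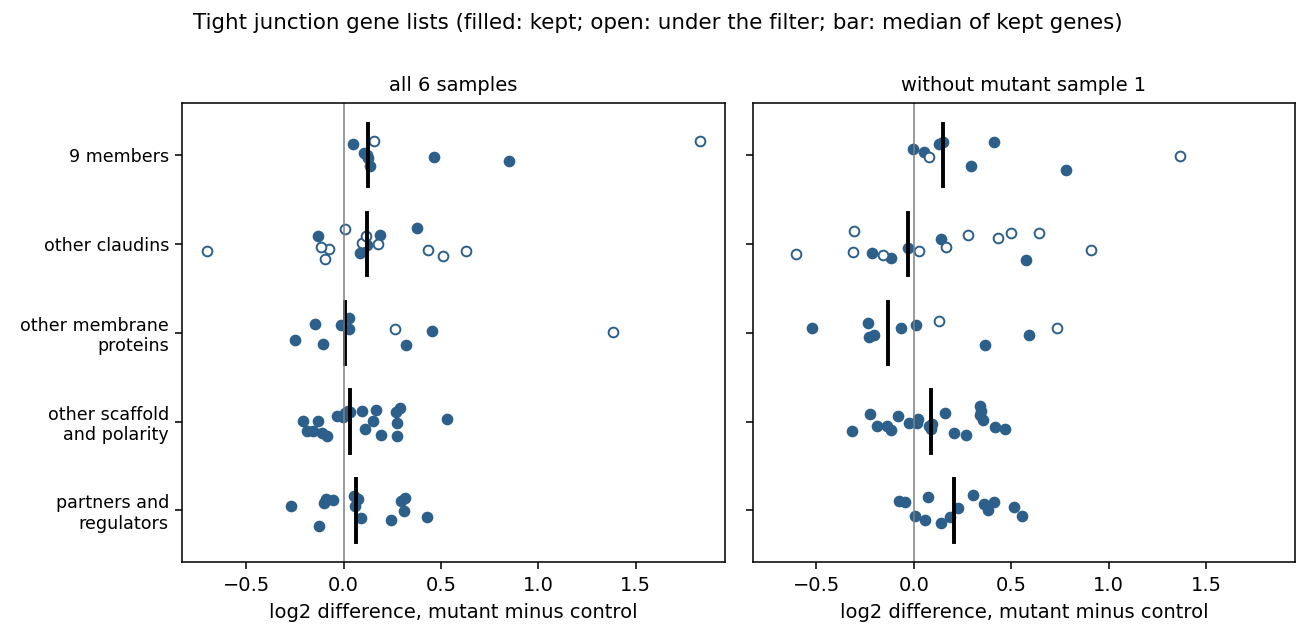
Log2 difference (mutant minus control) of each measured gene in 5 tight junction lists, with all 6 samples (left) and without mutant sample 1 (right). Filled points are genes kept by the filter, open points genes under it, and bars the median of the kept genes, which with all samples lies between 0.01 and 0.12.

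Cldn3 and Cldn7 varied most over the 6 samples, with SDs of 1.14 and 1.07 on the log2 scale. The remaining 7 genes had SDs of 0.625 or less. The genes whose centred profile lay nearest to theirs were found by the root mean square distance over the 6 samples among 11582 other kept genes. For Cldn3 the nearest was Mansc1, a membrane protein gene, at a distance of 0.26 with signals of 521, 254 and 216 in the mutant and 79.0, 122.8 and 85.3 in the control samples. Krt18 and Krt8 followed at 0.35 each, and then Mgat4a and Errfi1 at 0.45 each. For Cldn7 the nearest were Prom1 and Plac8 at 0.34 each, Adm and Slpi at 0.35 each, and Olfm1 at 0.36. All 5 of the latter had their highest signal in mutant sample 1, for example 1691 for Prom1 against at most 601 in the others. The 5 genes nearest to Cldn3, Mansc1 among them, were also highest in mutant sample 1, and were above all controls in mutant samples 2 and 3 as well. They were chosen for likeness to Cldn3, for which the same holds. With 6 samples of which 1 stands apart, these distances describe the arrays and rank genes mainly by that sample.

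**Figure D5:**
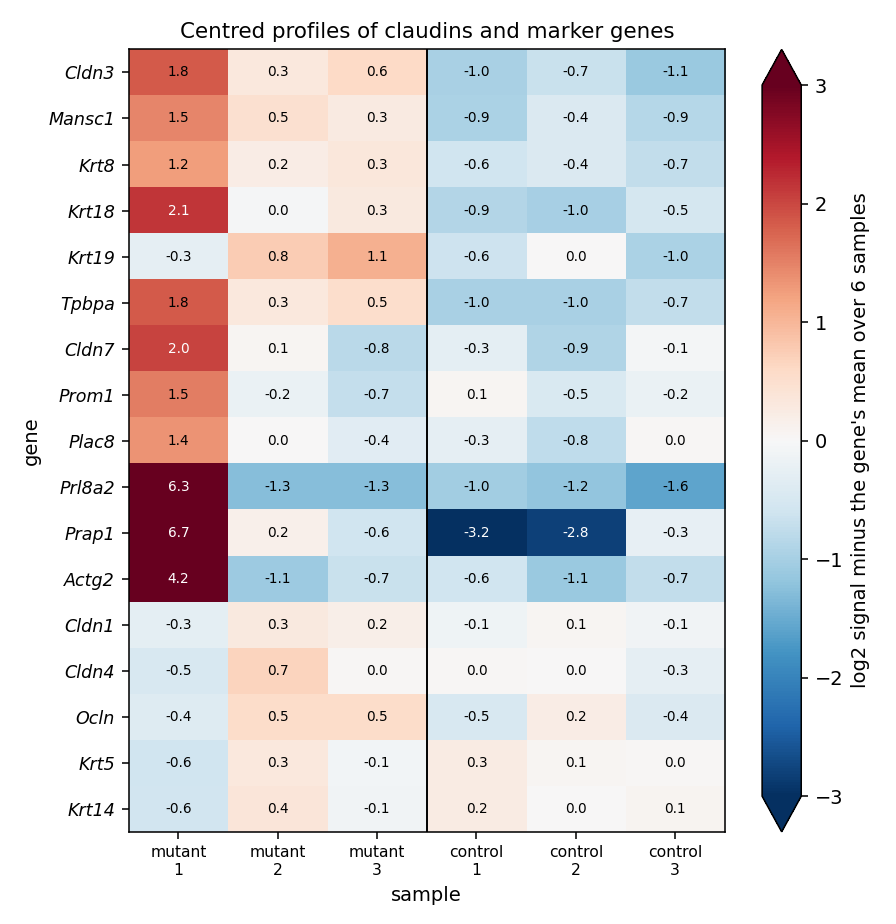
Log2 signal minus the gene's own mean over the 6 samples for 5 claudin and occludin genes, their nearest genes and markers of simple epithelium, trophoblast, decidua, smooth muscle and keratinocytes. Rows for Cldn3, Mansc1, Krt8 and Tpbpa are positive in all 3 mutant samples and negative in all 3 controls, whereas Cldn7, Prl8a2 and Actg2 are far above their mean only in mutant sample 1.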

How the data were processed

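The table holds the authors' deposited MAS5 signals, a linear intensity per probe set for 6 arrays (3 mutant, 3 control), made with MAS5 per the submitters' processing notes, which give no version. Groups came from the titles. Each array's mean after trimming 2% at each end was 500.

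Signals were analysed as log2(signal + 24.4), 24.4 being the 20th percentile of all values, without further normalization. Leaving aside 64 control probe sets, those with a mean log2 above the median were kept (22518). Symbols came from the platform annotation, updated through gene identifiers against RefSeq (GRCm38.p6). Each gene's brightest probe set (highest mean) stood for it.

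The test was limma 3.58.1 (R 4.3.3; linear fit, then eBayes with a trend; both directions). Its p-values were adjusted by Benjamini-Hochberg across every probe set in the fit and read at 0.05. It was tested on simulated data. P-values measure only the spread between these samples, which may be technical, and precision is limited by having 6 arrays. The members and gene lists were chosen with earlier results of these data known. Genes named are the 9 members, the 4 genes with the smallest p in each other tight junction list and fixed markers. Krt19 and the nearby genes Abhd11 and Mettl27, and Epcam, were added after values were seen. Other settings were pseudocounts, filters, normalization, variance models, array weights, a replicate block, probe set choice and each sample left out. Figures used matplotlib 3.10.9.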

Additional observations from a re-analysis of the deposited data

How the results depend on the processing

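No member gene passed an adjusted p of 0.05 in any setting run. The probe sets past that threshold numbered 1 with all samples, 106 with array weights, 8 with the replicate block and 1 to 39 with 1 sample left out (39 without mutant sample 1, 3 without control sample 2, 2 without mutant sample 2). The member genes past an unadjusted p of 0.05 numbered 1 without the filter (Cldn3), 1 with array weights (Ocln) and 0 to 2 with 1 sample left out, where they were Cldn1 and Ocln without mutant sample 1 and Cldn7 without mutant sample 3. The counts with array weights and with 1 sample left out used the filter, which Cldn3 does not pass. In limma without the filter, Cldn3 had an unadjusted p of 0.00106 with array weights and 0.0013 to 0.00819 with 1 sample left out. With 1 sample left out, the median difference of the members lay between 0.0486 (without mutant sample 2) and 0.1737 (without control sample 2), Cldn4 between -0.17 and 0.41, Cldn6 between -0.23 and 0.55, Tjp1 between -0.0018 and 0.13 and Cgn between -0.022 and 0.25. Cldn3 was positive in all 15 other settings run in the fit without the filter, a combination chosen after seeing the data, at 1.30 to 2.13 on its brightest probe set with limma adjusted p between 0.395 and 1. It has no value without _s_at, _x_at and _a_at probe sets, which removes all 4. The sign of 12 gene values turned, none of them past the threshold, while 486 kept sign and side, and the cause was not tested. These were Cldn1 without _s_at, _x_at and _a_at probe sets (-0.14) and over the mean of its probe sets (-0.11), Cldn4 without mutant sample 2 (-0.17), and Cldn6 without mutant sample 3 (-0.10) or control sample 2 (-0.23). With array weights Cldn7 (-0.063), Cgn (-0.02) and Grhl2 (-0.0507) turned, as did Cgn without mutant sample 2 (-0.022) or control sample 1 (-0.00028), Tjp1 without mutant sample 1 (-0.0018), and Jam2 over the mean of its probe sets (0.0094). Krt8 (0.96) and Krt19 (1.44) passed the threshold with array weights. Same-numbered samples' deviations correlated at -0.052, -0.073 and 0.11. With 3 arrays per group, and mutant sample 1 standing apart, these values cannot show whether the numbers pair the samples. With the replicate block the difference of Cldn3 was unchanged at 1.83 with an adjusted p of 0.995. Over all probe sets the median difference was -0.0246 as analysed, -0.0168 after quantile normalization and -0.0359 after centring arrays on their medians.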

Other observations

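Krt19, a keratin of simple epithelia and periderm, had its highest signals in mutant samples 2 and 3. They were 1633, 3405 and 4196 in mutant samples 1, 2 and 3 and 1289.6, 2011 and 1013 in the controls, a difference of 1.04 with all samples and 1.44 without mutant sample 1 (limma adjusted p = 1 with all samples). Ocln, Cldn1, Cldn23 and Grhl3 were also highest in those samples. The mutant samples therefore fall into different orders for these genes and for Cldn3, Krt8 and Krt18, which were highest in mutant sample 1. The relation between these groups of genes was not tested.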
